A study of Mus musculus with 12 samples.

Results

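The data described here are H3K27ac chromatin immunoprecipitation sequencing (ChIP-seq) libraries of wild-type mouse microglia, set against the input libraries of the same genotype. Members were all 1000 bp windows on chromosomes 1 to 19, which gave 66516 of the 67822 windows in the deposited table. The study compared wild-type mice of the C57BL/6N background with Nlrp3 knockout mice, and the knockout libraries were not used. Cells came from dissociated forebrain, had myelin removed and were selected with CD11b magnetic beads. CD11b is carried by microglia and by other myeloid cells, so the selection does not separate these. Each of the 2 wild-type groups (H3K27ac and input) held 3 libraries. The labels do not say whether the replicates were separate mice or pools, nor the age or sex of the animals, so p-values measure only the spread between these libraries. The windows were placed on a merged site list whose header points to accessible-chromatin sites (ATAC) from wild-type and knockout cells. They are therefore preselected places and not a tiling of the genome.

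H3K27ac is the acetyl mark on lysine 27 of histone H3. Acetyltransferases such as p300 and CBP write it at promoters and enhancers in use, and it is removed by histone deacetylases. In microglia, the resident macrophages of the brain, it is known to mark enhancers bound by the lineage factor PU.1 (Spi1) and genes that depend on signals of the brain environment, such as TGF-beta. Input is sheared chromatin taken from the same lysate before immunoprecipitation, and it gives the level that a window holds without enrichment by the antibody.

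The promoters below are shown because they span the results: 3 microglial genes and 2 broadly used genes whose promoters were enriched, and 2 promoters that were not called. Each runs from 250 bases before to 50 after the start site, 5′ to 3′ on the gene's strand, from RefSeq on build GRCm38.p6, with each CpG in capitals. They lie at chr3:59262936-59263235 on the minus strand (P2ry12), chr9:120068247-120068546 minus (Cx3cr1), chr11:59542436-59542735 plus (Nlrp3), chr2:122147437-122147736 plus (B2m), chr11:98026460-98026759 plus (Rpl19), chr7:25788684-25788983 minus (Axl) and chr9:118477939-118478238 plus (Eomes).
P2ry12: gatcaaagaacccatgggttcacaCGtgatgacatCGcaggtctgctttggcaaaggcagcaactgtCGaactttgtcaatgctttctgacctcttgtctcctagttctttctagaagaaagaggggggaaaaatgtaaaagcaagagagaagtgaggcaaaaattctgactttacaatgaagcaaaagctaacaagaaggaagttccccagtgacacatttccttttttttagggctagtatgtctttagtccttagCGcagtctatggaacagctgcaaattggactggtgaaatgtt
Cx3cr1: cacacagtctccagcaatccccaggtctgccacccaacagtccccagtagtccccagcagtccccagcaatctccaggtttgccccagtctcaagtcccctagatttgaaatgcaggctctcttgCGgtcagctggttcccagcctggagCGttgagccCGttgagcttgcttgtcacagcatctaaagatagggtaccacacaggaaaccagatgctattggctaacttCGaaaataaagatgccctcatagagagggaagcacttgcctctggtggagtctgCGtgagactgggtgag
Nlrp3: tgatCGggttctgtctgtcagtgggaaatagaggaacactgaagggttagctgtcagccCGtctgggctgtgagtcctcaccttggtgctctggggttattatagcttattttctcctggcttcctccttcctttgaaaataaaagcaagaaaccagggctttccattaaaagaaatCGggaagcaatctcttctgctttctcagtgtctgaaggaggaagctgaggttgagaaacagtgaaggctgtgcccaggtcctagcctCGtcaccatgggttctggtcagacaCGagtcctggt
B2m: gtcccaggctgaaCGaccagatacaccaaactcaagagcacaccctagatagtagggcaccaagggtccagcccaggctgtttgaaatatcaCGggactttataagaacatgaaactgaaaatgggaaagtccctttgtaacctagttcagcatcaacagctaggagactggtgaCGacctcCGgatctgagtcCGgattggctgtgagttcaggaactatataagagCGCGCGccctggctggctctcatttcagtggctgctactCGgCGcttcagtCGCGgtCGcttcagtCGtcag
Rpl19: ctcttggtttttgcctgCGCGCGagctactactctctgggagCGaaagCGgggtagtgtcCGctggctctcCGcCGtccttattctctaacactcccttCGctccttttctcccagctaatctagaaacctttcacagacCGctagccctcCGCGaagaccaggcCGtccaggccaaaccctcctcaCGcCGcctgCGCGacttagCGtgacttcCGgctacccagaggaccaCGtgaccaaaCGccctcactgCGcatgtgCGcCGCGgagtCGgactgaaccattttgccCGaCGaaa
Axl: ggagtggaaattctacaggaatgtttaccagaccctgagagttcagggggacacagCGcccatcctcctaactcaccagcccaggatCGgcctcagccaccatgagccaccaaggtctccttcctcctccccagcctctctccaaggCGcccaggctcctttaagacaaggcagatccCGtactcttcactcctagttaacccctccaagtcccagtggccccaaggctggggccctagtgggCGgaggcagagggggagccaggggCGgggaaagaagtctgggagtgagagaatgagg
Eomes: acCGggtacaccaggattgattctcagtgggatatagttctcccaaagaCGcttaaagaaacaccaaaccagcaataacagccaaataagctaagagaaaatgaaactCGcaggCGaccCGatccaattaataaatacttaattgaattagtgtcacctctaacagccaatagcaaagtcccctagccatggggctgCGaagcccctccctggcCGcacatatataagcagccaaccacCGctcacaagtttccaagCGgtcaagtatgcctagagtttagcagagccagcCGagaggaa

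The sequences differed in CpG number, with 4 in P2ry12, 5 in Cx3cr1, 5 in Nlrp3, 14 in B2m, 28 in Rpl19, 6 in Axl and 10 in Eomes. The median over the 31396 RefSeq promoters on these chromosomes was 7. P2ry12 and Nlrp3, with few CpGs, and Rpl19, with many, were all enriched, while Axl, with 6, was not called. Both strands were searched for short motifs, as a description of these letters and not of bound sites. CCAAT, the box bound by NF-Y, was in P2ry12, Cx3cr1, B2m and Eomes, and in 37.3% of all promoters. CCGGAAG, an ETS-family core, was in Rpl19 and in 9.0% of all promoters. TATAAA was in B2m and in 13.6% of all promoters. GGGCGG, the GC box, was in Axl and in 36.0% of all promoters. TGANTCA, the AP-1 site, was in none of the 7 and in 7.84% of all promoters. A RefSeq promoter was matched to 8859 of 11280 promoters of the table (78.5%), which is under the 80% needed, so a comparison of CpG or motif content between enriched and other promoters is void and is not given.

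The H3K27ac libraries held 3726550 to 4492763 tags and the input libraries 3287009 to 4926821. Windows took 41.0 to 45.1% of H3K27ac tags and 8.50 to 9.32% of input tags. Across the 29791 windows with 60 or more tags in all, log2 levels correlated at 0.67 to 0.77 between H3K27ac libraries and 0.30 to 0.34 between input libraries. These correlations are across windows, which are not independent replicates. Levels are given as CPM, the tag number scaled by the library total.

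Many of the accessible sites carried H3K27ac above input. Of the 66484 windows with a tag, 34977 were enriched, which means an adjusted p under 0.05 in the edgeR quasi-likelihood test and a ratio above 1. Another 1534 were lower than input and 29973 were not called. Whether the enriched windows were the majority depended on the setting, also with total tags: 23257 of 51915 windows that do not overlap the one before were enriched, and 30906, 31831 and 31609 windows without input replicate 1, 2 and 3. DESeq2 with total tags called 33144, and edgeR against a 2-fold ratio 31899. Over all chromosomes, 52.5% of tested windows were enriched and 2.35% were lower. In 33162 of the enriched windows, all 3 H3K27ac libraries lay above all 3 input libraries. The call largely implies this separation, and 3487 windows that were not called had it too. By the fit, 32844 windows were enriched at least 4-fold. The windows on either side of the threshold had adjusted p of 0.049991 (nearest gene Tmem131l) and 0.050008 (nearest gene Pik3c2a).

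These directions are relative to total tags. TMM scaling instead places the typical window near a ratio of 1, and it moved the median fitted log2 ratio of windows from 2.09 to -0.31, a shift that also turned the sign of low ratios. With it, 10862 windows were higher and 8113 lower, and with the size factors of DESeq2, 6167 were higher and 12672 lower. With total tags in DESeq2, 33144 were higher and 376 lower. Tags outside windows as library size moved the median the other way, to 2.77, with 40347 windows higher and 758 lower. The number of lower windows thus depends on the scaling in both directions. Of the promoters named below, Tmem119, Fos, Rpl27, Elavl4, Dlg4, Ndrg2, Mbp, Mog, Kdr, Pecam1, Cd22 and Cela1 were enriched against total tags and had ratios below 1 under TMM.

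Not called did not mean without the mark. Of the windows not called, 18720 had a ratio above 1, and in 26743 the upper bound of the 95% interval of the ratio reached 2-fold or more, so a 2-fold enrichment was not excluded there. In 3230 the bound was under 2-fold.

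**Figure D1:**
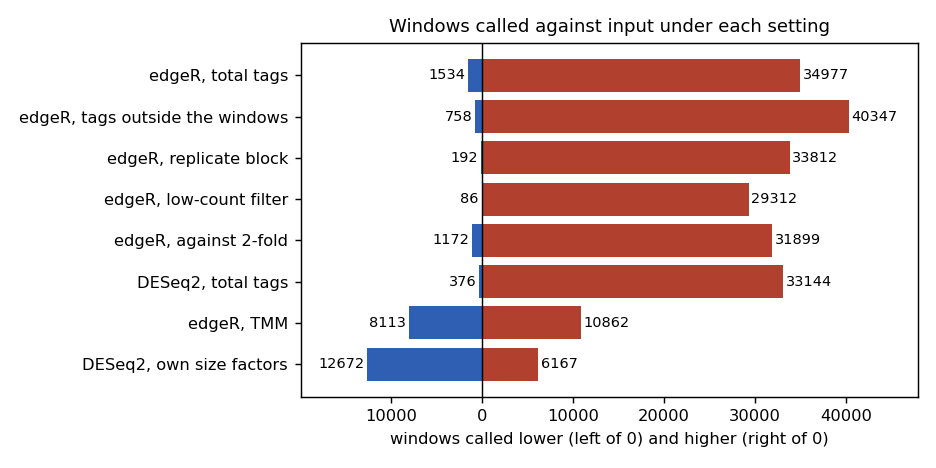
Number of windows called lower than input (blue, left of 0) and higher (red, right of 0) under each test and scaling, on chromosomes 1 to 19. With library totals, 29312 to 34977 windows were higher, the fewest with the low-count filter, which kept only 29614 windows. With tags outside the windows, 40347 were higher. TMM and the size factors of DESeq2, which centre the windows on themselves, gave 10862 and 6167.

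Windows near a start site were enriched more often than windows farther away. Of 17095 windows within 1 kb of a transcription start site, 12579 (73.6%) were enriched and 107 were lower. Of 49421 windows farther away, 22398 (45.3%) were enriched and 1427 were lower. The median log2 ratio of mean CPM plus a pseudocount of 0.5 was 2.45 for promoter windows (2.52, 2.36 and 2.50 for replicate numbers 1 to 3) and 1.22 for distal windows (1.36, 1.18 and 1.24). The 3 promoter values lay above the 3 distal values, and no test was run on 3 values of a kind.

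Enrichment fell with distance from the start, from 48.4% of windows at 1 to 10 kb to 44.6% at 10 to 50 kb, 42.5% at 50 to 100 kb and 41.5% beyond 100 kb. Intronic windows were enriched more often (52.0% of 28721) than intergenic ones (40.8% of 20142). Windows annotated to CpG islands were enriched in 71.7% of 2062. Windows on LINE, SINE and LTR repeats were enriched in 46.2%, 43.5% and 42.8%. Satellite repeats, which make up centromeric heterochromatin, stood at the other end, with 8 of 80 windows enriched and 43 lower.

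Sites on both accessibility lists were enriched in 58.3% of 50270 windows. Sites on the wild-type list alone were enriched in 36.3% of 10815, and sites on the knockout list alone in 32.6% of 5431. Of the windows listed for knockout cells alone, 1769 were therefore enriched in wild-type cells. Such a window can overlap one on both lists and share its tags, as at Cx3cr1 and Tnf. It need not be a site open only in knockout cells, and the overlapping ones were not counted. The share enriched ranged over chromosomes from 49.4% (chromosome 6) to 55.2% (chromosome 5). Windows can overlap, and 14570 overlapped the window before them. Of these 77.8% were enriched, against 45.5% of the rest.

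**Figure D2:**
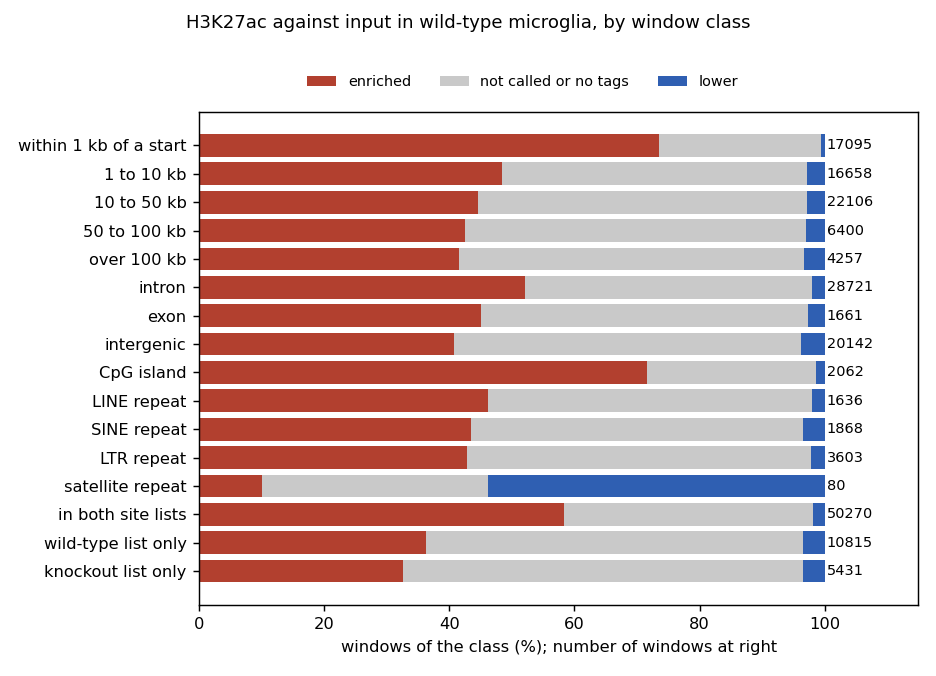
Share of windows enriched (red), lower (blue) and not called or without tags (grey) in each class, with the number of windows at right. Windows within 1 kb of a start and on CpG islands were enriched in 73.6% and 71.7%, while 43 of 80 satellite windows were lower.

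**Figure D3:**
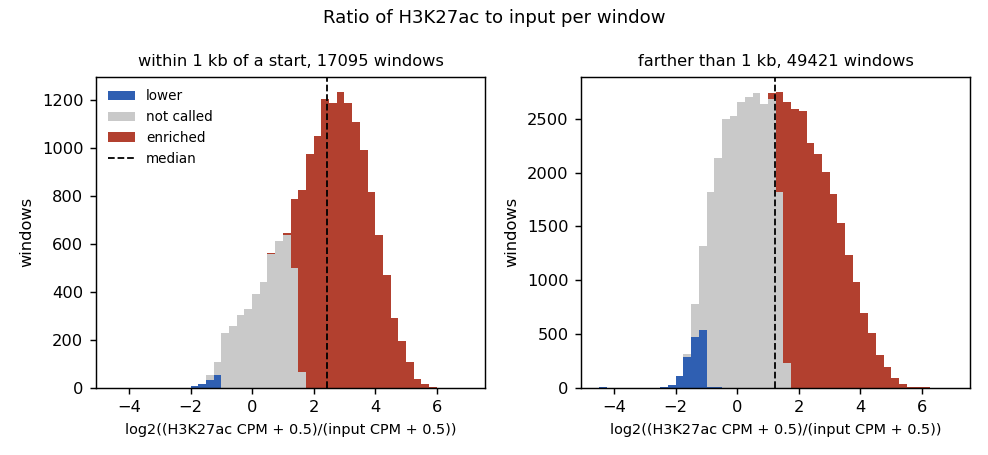
Histograms of the log2 ratio of mean H3K27ac CPM plus 0.5 to mean input CPM plus 0.5 for promoter windows (left) and distal windows (right), coloured by call, with the median as a dashed line. The medians were 2.45 and 1.22, and the distal windows had the larger share not called.

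Among the 10 enriched windows of highest ratio, 9 lay within 1214 bp of a start and 1 was intergenic. The promoter window of Dlgap4, named for its nearest gene, held 78, 51 and 84 H3K27ac tags and 0 in every input library, at least 73.7-fold higher with 3 tags over the group as the floor. Ube2r2 (39, 30 and 41 tags), Ankrd44 (51, 28 and 25), Tcf4 (26, 49 and 29) and Fut8 (34, 23 and 34) also had 0 input tags, and were at least 38.1-fold, 36.0-fold, 36.0-fold and 31.5-fold higher. Named windows were chosen among those whose groups do not overlap.

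An intergenic window at -18018 bp from the start of Atf3, a stress-induced transcription factor, held 311, 301 and 315 H3K27ac tags against 1, 2 and 0 input tags. The ratio was 321, with a 95% counting interval of 110 to 1559, and the adjusted p was 2.12e-29. A window in Cyba, a subunit of the phagocyte NADPH oxidase, held 119, 137 and 104 tags against 0, 1 and 0. A window in Junb, an AP-1 subunit, held 166, 162 and 224 against 1, 0 and 1, a ratio of 287 with an interval of 79.0 to 2373. Fbxo30, an F-box protein, and Plod3, a lysyl hydroxylase, completed the 10, with 116, 128, 110 and 80, 58, 119 tags against 1 input tag each.

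The highest H3K27ac level among enriched windows was found away from a promoter. A window at -46748 bp from the start of Tnfaip3, which encodes the NF-kB inhibitor A20, held 416, 322 and 324 H3K27ac tags (86.6 CPM) against 5, 7 and 5 input tags. It was 64.9-fold higher (log2 ratio 6.01 ± 0.37 SE, adjusted p 3.01e-27). This window was chosen after its values were seen.

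Acetylation was spread over many sites at some genes. Of 15463 genes with a window within 100 kb, 4984 had no enriched window, 3942 had 1 and 550 had 10 or more. The most were at Frmd4a, a FERM-domain scaffold protein, with 47 of 59 windows enriched. Cxxc5 had 33 of 42, Ldlrad4 32 of 44, Pag1 32 of 37, Tns3 32 of 36 and Ubash3b 32 of 40. Epb41l2 had 30 of 36, Pmepa1 30 of 34, Fam49b 30 of 40 and the DNA methyltransferase Dnmt3a 29 of 38. Ldlrad4 and Pmepa1 encode inhibitors of TGF-beta signalling. Summed over windows within 100 kb, 10376 of 15453 tested genes were enriched and 287 lower. Where windows overlap, a tag is counted more than once in these gene sums, which can overstate the evidence for a gene. Over all chromosomes, 67.1% of genes were enriched and 1.83% lower. TMM gave 3426 genes higher and 3175 lower. The 287 lower genes became 88 with a replicate block, and 147, 125 and 149 without input replicate 1, 2 and 3.

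Calls at promoter and distal sites did not always agree, and a site that was not called may still carry the mark. Among 7459 genes with both kinds of window, 3712 had an enriched window of each kind, 1771 at the promoter only, 766 distally only and 1210 at neither. Ccr1, a chemokine receptor, had 18 of 19 windows enriched, while its promoter sum held 10 H3K27ac and 6 input tags. Ccr6, also a chemokine receptor, had 16 of 17 enriched, with 32 and 9 promoter tags. Neither promoter was called, on these few tags, at log2 ratios of 0.79 (Ccr1) and 1.79 (Ccr6). At the other end, Rara, the retinoic acid receptor alpha, had 0 of 16 windows enriched, and 0 of 13 were enriched at Dab2ip. These genes were chosen after their values were seen.

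Tags were then summed over the windows within 1 kb of each start. Of 11274 tested genes, 8390 had an enriched promoter and 92 a lower one. Over all chromosomes, 74.4% were enriched and 0.811% lower. Under TMM 1683 were higher and 1276 lower. The 92 lower promoters became 21 with a replicate block, 147 without H3K27ac replicate 1, and 42, 41 and 53 without input replicate 1, 2 and 3. Because windows can overlap, a tag near a start may be counted more than once in a sum.

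The 10 highest promoter sums among enriched promoters were led by Tgif1 and Sirpa. Sums grow with the number of promoter windows of a gene. Tgif1, a repressor that acts with SMAD proteins, had 1045, 1172 and 1347 H3K27ac tags against 45, 42 and 51. Sirpa, the myeloid receptor for CD47, had 960, 984 and 1188 against 34, 43 and 21. The clock gene Per1 had 644, 723 and 827 against 26, 25 and 10. The bromodomain protein Brd2 had 566, 666 and 864 against 23, 37 and 17. Cflar, an inhibitor of caspase-8, had 661, 643 and 759 against 22, 14 and 41. B2m, the light chain of MHC class I, had 600, 673 and 640 against 29, 16 and 11. Spag9, Atp6v1a (a subunit of the proton pump of lysosomes), Arrdc3 and 4930526I15Rik completed the 10. All 10 were 26.8 to 62.7-fold higher.

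The identity genes of microglia were acetylated at nearly every promoter. Of the 46 promoters on the homeostatic microglia list that were measured, 45 were enriched, with a median of 8.56-fold on the pseudocount scale against 5.33-fold over all promoters. TMM called 15 higher and 2 lower. The counts of the lists that follow are to be read beside the 74.4% enriched and the median of 5.33-fold over all promoters, and the lists were not tested against them. The purinergic receptor P2ry12 had 398, 424 and 446 H3K27ac tags against 15, 14 and 16 input tags (log2 ratio 4.84 ± 0.32, adjusted p 9.09e-17). The fractalkine receptor Cx3cr1 had 279, 208 and 197 against 6, 10 and 7, and the transcription factor Sall1 177, 230 and 128 against 4, 5 and 3. Every H3K27ac library lay above every input library for these 3 promoter sums. Among single windows this held for 33162 of the 34977 enriched and 3487 of the 29973 not called.

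Tgfbr2, the type 2 TGF-beta receptor, had 129, 147 and 137 tags against 3, 4 and 1 (log2 ratio 5.69 ± 0.44), and Adgrg1 had 144, 216 and 136 against 7, 3 and 0. The receptor Csf1r, needed for microglial survival, had 119, 164 and 147 against 13, 14 and 7. Tmem119 was low, with 25, 10 and 9 against 6, 2 and 3 (log2 ratio 2.05 ± 0.74, adjusted p 0.0114). Its call was lost without H3K27ac replicate 1 (adjusted p 0.171) or without input replicate 2 (0.0669). The ligand Gas6 was not called, with 2, 19 and 6 against 11, 8 and 0.

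Most windows within 100 kb of these genes were enriched, against 52.6% of all windows. The counts include the promoter windows themselves. All 6 windows of P2ry12 and all 12 of Cx3cr1 passed, as did 9 of 12 of Sall1, 9 of 11 of Csf1r and 10 of 11 of Tmem119.

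**Figure D4:**
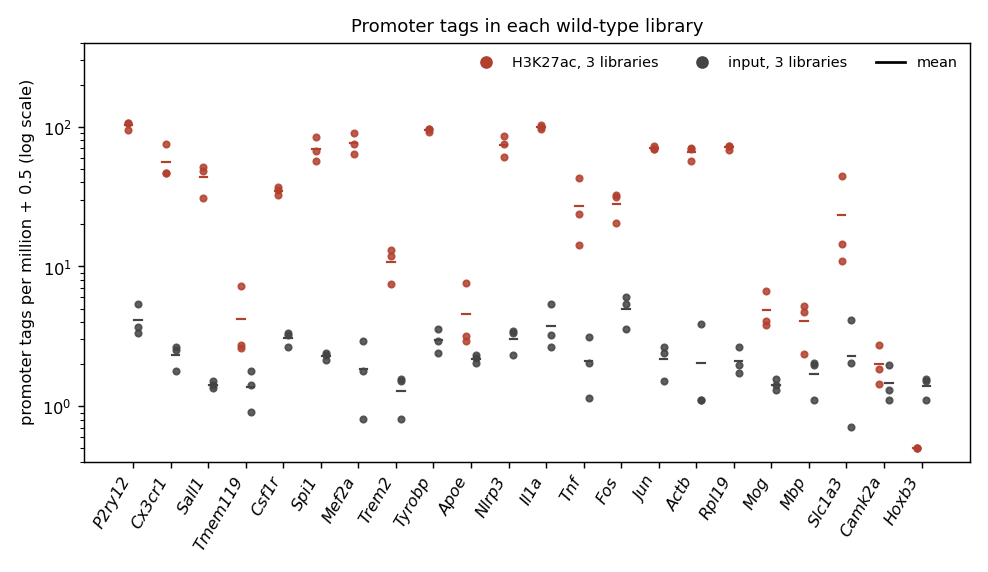
Promoter CPM plus 0.5 on a log scale for 22 named genes, with 3 H3K27ac libraries (red), 3 input libraries (dark grey) and their means (bars). The groups are far apart for P2ry12, Spi1, Tyrobp and Il1a, close for Apoe and Camk2a, and reversed for Hoxb3, where all 3 H3K27ac libraries held 0 tags.

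Promoters of lineage transcription factors were nearly all enriched. Of 31 measured promoters, 30 were enriched, with a median of 12-fold, and TMM called 14 higher and 0 lower. Spi1, which encodes PU.1, had 210, 298 and 353 tags against 9, 8 and 6 (log2 ratio 5.25 ± 0.35), and all 11 of its windows were enriched. The farthest lay at -13090 bp, with 132, 157 and 111 tags against 6, 6 and 4. Mef2a had 335, 336 and 267 tags against 6, 12 and 1, and Bhlhe41 202, 196 and 248 against 6, 4 and 4. Fli1, an ETS factor, had 75, 101 and 117 against 1, 1 and 0, a ratio of 152 with a counting interval of 41.8 to 1262. Nr1h3 (liver X receptor alpha) was not called, with 3, 8 and 0 against 2, 1 and 3.

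Of 31 measured promoters of disease-associated microglia genes, 26 (83.9%) were enriched, with a median of 9.16-fold, and TMM called 9 higher and 3 lower. The protease Ctsz had 442, 367 and 490 tags against 4, 6 and 6 (log2 ratio 6.37 ± 0.37). The adaptor Tyrobp had 359, 408 and 409 against 9, 15 and 8, and its partner receptor Trem2 26, 51 and 53 against 5, 5 and 1. B2m is given above.

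The 5 that were not called were Apoe, Axl, Spp1, Lgals3 and Fabp5. The lipid carrier Apoe had 9, 12 and 30 tags against 8, 9 and 5 (log2 ratio 1.25 ± 0.62, adjusted p 0.0632), and 0 of its 7 windows were enriched. Its sum over those windows was enriched (log2 ratio 1.29 ± 0.37, adjusted p 0.00203), though some of them overlap, so tags count more than once. The Apoe promoter passed without H3K27ac replicate 1 (adjusted p 0.0304) or without H3K27ac replicate 2 (0.0377). The receptor tyrosine kinase Axl held 0 H3K27ac tags in every library against 2, 0 and 0.

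Of complement, Fc and pattern receptors, 27 of 30 measured promoters were enriched, with a median of 8.33-fold, and TMM called 11 higher and 1 lower. Tlr9, the receptor for unmethylated CpG DNA, had 266, 236 and 233 tags against 6, 9 and 2. C1qa, a chain of complement C1q, had 131, 154 and 185 against 4, 7 and 3, and Cd300a 94, 105 and 126 against 5, 2 and 3. Cd300ld was not called, with 3, 5 and 16 against 3, 3 and 4.

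Of 31 measured promoters of cytokines and chemokines, 18 were enriched (58.1%, against 74.4% over all promoters), with a median of 4.51-fold, below that of all promoters, and TMM called 5 higher and 6 lower. The chemokine Ccl12 had 237, 323 and 404 tags against 4, 12 and 7 (log2 ratio 5.41 ± 0.36). Il1a had 368, 433 and 432 against 13, 24 and 7, Ccl9 48, 81 and 44 against 5, 0 and 1, and Tnf 158, 62 and 99 against 3, 13 and 5. Lif held 0 H3K27ac tags in every library against 1, 3 and 2 input tags and was not called. No promoter window was assigned to Il1b, but 5 of its 7 windows within 100 kb were enriched, and the highest, at -9257 bp, held 222, 274 and 249 tags against 8, 5 and 4.

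Immediate early genes, which respond to stimulation within minutes, were enriched at 33 of 35 promoters. The median was 12.7-fold, and TMM called 17 higher and 1 lower. The AP-1 subunit Jun had 258, 307 and 307 tags against 9, 5 and 7, Btg2 352, 315 and 373 against 9, 12 and 6, and Fosl2 214, 244 and 235 against 6, 5 and 4. Fos had 120, 90 and 131 against 26, 24 and 10 (log2 ratio 2.60 ± 0.35), and 17 of its 35 windows were enriched. Egr3 held 0, 0 and 2 against 1, 1 and 3. Dissociation is known to induce these genes in brain cells. No library here was made without it, so acetylation present in the brain and acetylation gained during dissociation cannot be told apart.

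Of inflammasome genes, 19 of 21 promoters were enriched, with a median of 9.70-fold, and TMM called 4 higher and 1 lower. Nlrp3, the sensor deleted in the knockout mice of the study, had 318, 271 and 314 tags against 14, 14 and 6 (log2 ratio 4.80 ± 0.33, adjusted p 3.77e-16), and 7 of its 8 windows were enriched. Ninj1, which ruptures the membrane at lytic cell death, had 159, 180 and 215 against 7, 5 and 6. The interleukin 1 receptor Il1r1 was not called, with 5, 2 and 0 against 2, 14 and 2.

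Interferon response genes were enriched at 17 of 24 promoters (70.8%, near the 74.4% over all promoters), with a median of 4.32-fold, below that of all promoters, and TMM called 0 higher and 3 lower. The RNA sensor Ifih1 had 63, 108 and 59 tags against 6, 6 and 1, Irf9 41, 39 and 65 against 2, 3 and 5, and Mx2 23, 36 and 31 against 2, 1 and 3. Rsad2 held 4, 1 and 3 against 3, 7 and 4 and was not called.

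Genes of glutamine and glutamate metabolism, the pathway in the title of the study, were enriched at 26 of 34 promoters. This share, 76.5%, was near the 74.4% over all promoters. The median was 3.98-fold, below the 5.33-fold of all promoters, and TMM called 1 higher and 1 lower. The glutamine transporter Slc38a2 had 326, 409 and 479 tags against 10, 9 and 7 (log2 ratio 5.57 ± 0.34). Its relatives Slc38a7 and Slc38a1 had 26, 55 and 63 against 5, 0 and 2, and 104, 142 and 57 against 1, 7 and 8. Abat, which degrades GABA, held 0, 1 and 0 against 1, 2 and 1.

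Broadly used genes were enriched at most promoters. All 55 measured promoters of cytosolic ribosomal proteins were enriched, with a median of 9.37-fold, and TMM called 11 higher and 0 lower. Rpl19 had 253, 325 and 305 tags against 7, 6 and 7, and Rpl21 321, 293 and 267 against 9, 9 and 7. Rps29 had 193, 125 and 90 against 2, 7 and 3, and the lowest, Rpl27, 37, 23 and 5 against 8, 4 and 5. The call of Rpl27 was lost without H3K27ac replicate 1 (adjusted p 0.133). Ribosomal protein genes have many processed copies, so the assignment of tags to them is uncertain.

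Proteasome subunits were enriched at 31 of 34 promoters, with a median of 5.38-fold and 3 higher and 3 lower under TMM. Psmd12 had 56, 40 and 50 tags against 3, 1 and 1, Psma3 114, 136 and 73 against 0, 3 and 8, and Psme2 156, 108 and 113 against 10, 6 and 4. The immunoproteasome subunit Psmb10 was not called, with 13, 6 and 2 against 5, 4 and 1. Of glycolysis and tricarboxylic acid cycle genes, 38 of 42 were enriched, with a median of 6.29-fold and 7 higher and 2 lower under TMM. Aldoa, a glycolytic aldolase, had 246, 214 and 299 against 10, 4 and 4, Ogdh 306, 257 and 415 against 12, 11 and 5, and Mpc1, which carries pyruvate into mitochondria, 193, 135 and 125 against 7, 3 and 0. Pfkp held 2, 0 and 0 against 6, 0 and 2. Actb, cytoplasmic actin, had 211, 314 and 293 against 16, 3 and 2.

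**Figure D5:**
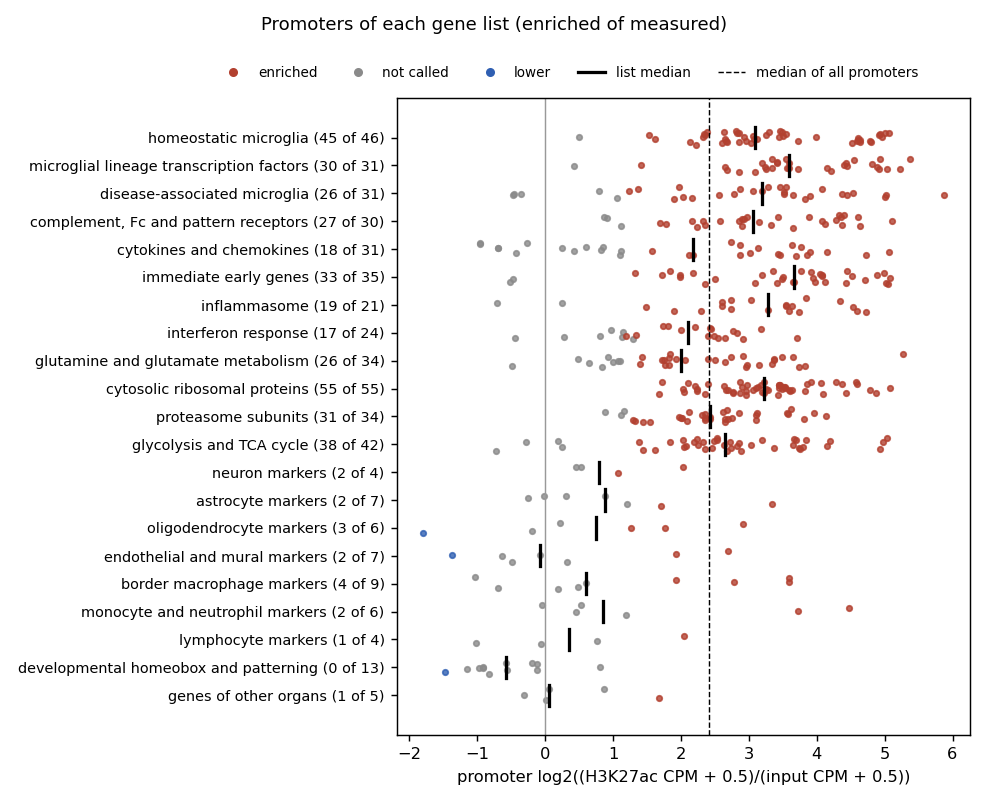
Promoter log2 ratio on the pseudocount scale of each measured member of the 21 gene lists, coloured by call, with the list median (bar) and the median of all promoters (dashed line). The names give the number enriched of those measured. Lineage factors and immediate early genes had the highest medians, and homeobox genes the lowest.

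Few promoters of other cell types were in the table, and fewer were enriched. The windows are accessible sites, so a promoter closed in these cells may have no window. Sums over windows within 100 kb covered more genes, and 67.1% of all genes were enriched by them. They were enriched at 10 of 16 border macrophage, 9 of 16 endothelial and mural, and 8 of 17 lymphocyte genes. For neuron, astrocyte and oligodendrocyte genes the counts were 3 of 11, 6 of 15 and 5 of 14. Monocyte and neutrophil genes had 5 of 16. Of 30 neuronal markers 4 were measured and 2 enriched, Dlg4 with 9, 23 and 9 tags against 2, 4 and 0, and Elavl4 with 29, 18 and 20 against 10, 14 and 7. The 4 summed to 7.80 to 12.3 CPM in H3K27ac libraries and 3.04 to 4.67 CPM in input. Camk2a was not called, with 5, 10 and 4 against 7, 4 and 2. Snap25, a synaptic protein, had no promoter window and 0 of 3 windows enriched, though their sum was (log2 ratio 1.46 ± 0.61, adjusted p 0.0327). Some of these 3 windows overlap, so that sum counts tags more than once. The call of Elavl4 was lost without H3K27ac replicate 1 (adjusted p 0.184) and without each input replicate (0.0588 to 0.107).

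Of 7 measured astrocyte promoters 2 were enriched, the glutamate transporter Slc1a3 with 52, 47 and 185 tags against 1, 18 and 5, and Ndrg2 with 3, 20 and 32 against 3, 2 and 6. The 7 summed to 17.8 to 62.1 CPM in H3K27ac libraries, the highest in replicate 3, and 3.39 to 8.82 CPM in input. The call of Ndrg2 was lost without H3K27ac replicate 3 (adjusted p 0.0664). Fgfr3 held 4, 1 and 0 against 0, 3 and 4. Gfap had no promoter window and 0 of 2 windows enriched.

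Of 6 measured oligodendrocyte promoters 3 were enriched, the myelin genes Cnp (33, 41 and 35 against 5, 4 and 1), Mog (23, 15 and 15 against 5, 4 and 3) and Mbp (7, 21 and 18 against 7, 3 and 5). The 6 summed to 17.2 to 18.4 CPM in H3K27ac libraries and 3.96 to 6.99 CPM in input. The promoter call of Mbp was lost without H3K27ac replicate 2 (adjusted p 0.105) and without each input replicate (0.0526 to 0.148). Both Mbp promoter windows lay at the upstream start of the gene, and neither was called alone (edgeR adjusted p 0.374 and 0.101). Windows farther downstream were measured from another Mbp start, which had no window within 1 kb. Within 100 kb, 9 of 19 Mbp windows were enriched, and the sum over all of them was too (edgeR log2 ratio 2.74 ± 0.19, adjusted p 3.98e-17). The oligodendrocyte factor Myrf was lower, with 1, 0 and 0 against 8, 10 and 3, and its call was lost without input replicate 2 (adjusted p 0.0557). In bulk chromatin, the mark in a few cells and a weaker mark in every cell cannot be told apart. Under TMM none of these neural promoters was higher.

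Of 7 endothelial and mural promoters, Kdr (29, 70 and 64 against 5, 12 and 4) and Pecam1 (14, 34 and 22 against 2, 5 and 6) were enriched, and the 7 summed to 12.9 to 24.0 CPM against 4.03 to 5.48 CPM. Cldn5, which defines the endothelium of the brain, held 2, 1 and 0 against 0, 0 and 1. Acta2 held 0, 0 and 1 against 4, 6 and 3 and was lower (adjusted p 0.041), a call lost with a replicate block (0.119) and when any of 5 single libraries was left out (0.0655 to 0.133).

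Border macrophages are brain macrophages outside the parenchyma, and the bead selection does not exclude them. Of their 9 measured promoters 4 were enriched, including Stab1 (51, 46 and 12 against 3, 1 and 0), Maf (34, 60 and 111 against 2, 8 and 2) and Siglec1 (26, 56 and 41 against 3, 7 and 3). The 9 summed to 37.0 to 49.2 CPM against 5.30 to 8.52 CPM, and the part of these cells in other results was not tested. The defining marker Mrc1 held 3, 13 and 2 against 3, 5 and 3 and was not called, Pf4 held 0, 2 and 0 against 4, 1 and 2, and Clec12a held 1, 0 and 0 against 1, 5 and 3. Of 6 promoters of monocyte and neutrophil markers, Csf3r (197, 267 and 194 against 10, 13 and 3) and Vamp5 (37, 55 and 64 against 3, 1 and 2) were enriched. The 6 summed to 65.2 to 77.2 CPM against 3.04 to 6.36 CPM. Csf3r alone held a mean of 52.7 CPM in the H3K27ac libraries, so the sum mostly describes this 1 promoter. The adhesion receptor Itga4 was not called, with 5, 6 and 8 against 10, 10 and 2.

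Of 4 lymphocyte promoters only Cd22, a lectin that microglia can also express, was enriched (21, 11 and 37 against 2, 5 and 5), and the 4 summed to 4.45 to 9.21 CPM against 1.91 to 3.65 CPM. Eomes, shown above, held 0 H3K27ac tags against 2, 1 and 3 and was not called. No window was assigned to Cd3e within 100 kb.

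No promoter of the developmental regulators was enriched. Of 84 homeobox and patterning genes, 13 had a promoter window, 12 held a tag and 0 were enriched by edgeR with total tags, also at an unadjusted p under 0.05 and by DESeq2. They summed to 1.61 to 4.25 CPM against 5.78 to 7.41 CPM. Hoxb3 held 0 H3K27ac tags against 5, 5 and 2 and was at least 3.85-fold lower (adjusted p 0.0116), a call lost with the replicate block (0.0602). With TMM 8 of the 12 were lower. Of 5 promoters of genes of other organs, 1 was enriched, the elastase Cela1 with 9, 12 and 5 tags against 2, 1 and 1, and that call was lost without H3K27ac replicate 2 (adjusted p 0.0518) or input replicate 2 (0.0754). Apoa2, a liver apolipoprotein, was not called, with 6, 0 and 0 against 5, 2 and 3. By the sums within 100 kb, 1 of 42 homeobox and patterning genes was enriched and 5 were lower. Of genes of other organs, 7 of 21 were enriched by these sums and 0 lower, against 67.1% enriched and 1.83% lower over all genes.

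Windows lower than input were of 2 kinds. In 1387 of the 1534, all H3K27ac libraries held 0 tags, against 7 to 170 input tags in all (median 10). This count rests on few tags and moved with the test. A replicate block left 192 lower windows, and leaving out input replicate 1, 2 or 3 left 503, 564 and 885. The low-count filter of edgeR left 86, but it kept only 29614 of the 66484 windows. It removes windows of few tags before the test, so this fall does not measure the test. The other 147 held H3K27ac tags, and 40 of them were annotated to satellite repeats.

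The block of such windows with the most tags was on chromosome 2 between 98662295 and 98667705, nearest to Lrrc4c, where 6 satellite windows were lower. These 6 windows summed to 1.06, 1.40 and 1.12% of all H3K27ac tags and 2.85, 3.16 and 3.12% of all input tags, a pooled ratio of 0.395. Some of them overlap, so tags there count more than once in the shares. This and the following ratios sum only windows that were each called lower, so they describe those windows and do not support the call. A second block of 23 windows, 22 of them satellite, lay on chromosome 9 between 2999565 and 3038687 next to Mir101c, with a pooled ratio of 0.416. Another, of 8 satellite windows, was on chromosome 14 between 19415289 and 19419817, nearest to Gm5458, with a ratio of 0.417. Satellite arrays are collapsed in the assembly, so tags of many copies can fall on few windows.

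Lower windows were also found outside satellites. A window nearest to Col19a1, at -25680 bp from its start, on chromosome 1 between 24612617 and 24613617, held 0 H3K27ac tags against 88, 48 and 34, at least 54.6-fold lower. Near-identical copies elsewhere in the genome are possible, so the origin of these tags is uncertain. A window near Sfi1, a centrosome protein with several partial copies, held 9, 13 and 5 against 66, 61 and 40 (log2 ratio -2.55 ± 0.42). Windows near Frmd4a (2, 13 and 1 against 29, 29 and 21) and the chemokine Ccl28 (2, 11 and 3 against 17, 26 and 16) were also lower, though Frmd4a had the most enriched windows of all genes. The window of Ccl28 lost its call without input replicate 2 (adjusted p 0.0788) or input replicate 3 (0.0632).

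Pisd-ps1 (0, 3 and 6 against 11, 16 and 14), Mir101c (11, 15 and 10 against 59, 49 and 44), Gm5458 (51, 102 and 85 against 363, 234 and 242) and Fam172a (13, 4 and 3 against 18, 23 and 30) were on satellite. P4ha2 (4, 9 and 0 against 16, 27 and 11) and Ugt1a1 (3, 9 and 0 against 16, 12 and 14) completed the 10 lowest ratios. Calls of Pisd-ps1, P4ha2, Fam172a and Ugt1a1 were lost when single libraries were left out. Without input replicate 3, their adjusted p was 0.149, 0.0619, 0.160 and 0.223.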

How the data were processed

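Per the file headers, the authors counted tags with HOMER annotatePeaks in 1000 bp windows of mm10, unnormalized, and the deposited table holds these raw counts beside the total tags of each library. The submitters' processing notes name HOMER and DESeq2; the sources used here name no aligner or version. Of the per-sample columns, the 3 wild-type H3K27ac and the 3 wild-type input columns were used (the input headers read input_wt_NLRP3 and their labels give the genotype as wild type), and 6 columns of per-sample values were not used. The separate table of normalized values was not used.

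Counts were fitted in edgeR 4.0.16 (glmQLFit, glmQLFTest, R 4.3.3) with total tags as library size, keeping windows with at least 1 tag, on the whole table with Benjamini-Hochberg adjustment and a threshold of 0.05, 2-sided. The same fit was run on sums per gene (windows within 100 kb) and per promoter (within 1 kb). The code was tested on simulated data. A ratio against a group with 0 tags uses 3 tags over the group as the floor, and ratios on 1 to 3 tags carry 95% counting intervals, which cover counting error only. Medians use log2 of CPM plus 0.5, which understates the ratio of low windows. Alternatives were TMM, tags outside windows as library size, DESeq2 1.42.0, filterByExpr, glmTreat against 2-fold, a replicate block, pseudocounts of 0.1 and 1, windows that do not overlap, windows within 10 kb and leaving out each library. Depths of 3287009 to 4926821 tags make 1 tag worth 0.203 to 0.304 CPM.

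Per the labels' protocols the input is an aliquot of the lysate that was immunoprecipitated, so equal replicate numbers were taken as paired. Deviations of same-numbered libraries from their group means had correlations of 0.00796, 0.00164 and 0.00205 over 29791 windows, and the block is given where it moves a call.

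Members and the 21 gene lists (773 symbols, 599 with a window, 1 matched through a synonym) were chosen with earlier results of these data known. Named windows are the 10 of largest ratio in each direction among called windows whose groups do not overlap and whose mean count is at or above the median, 1 per gene. Named genes are the 10 highest promoter sums, the 10 genes with most enriched windows, up to 3 enriched and the lowest promoter of each list, and 18 fixed genes. Some of these are not reported here.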

Additional observations from a re-analysis of the deposited data

Results flagged for a closer look

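Windows outside chromosomes 1 to 19 were not part of the comparisons, but signal above input was present there. Of 1061 windows on the X chromosome, 604 (56.9%) were enriched and 11 were lower, with a median log2 ratio of 1.83 on the pseudocount scale. Of 7 windows on the Y chromosome, 3 were enriched, and of 238 windows on unplaced sequence 14 were enriched and 44 were lower. Tags in the Y windows numbered 12, 264 and 227 in H3K27ac replicates 1 to 3 and 1, 112 and 57 in input replicates 1 to 3.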

How the results depend on the processing

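Against 34977 enriched windows, TMM gave 10862, the size factors of DESeq2 6167 and windows that do not overlap 23257, and leaving out each library gave 30906 to 36275. Lower windows, 1534 with total tags, numbered 8113 (TMM), 12672 (DESeq2 size factors), 758 (tags outside windows as library size), 86 (filterByExpr), 376 (DESeq2, total tags) and 192 (replicate block), and 503 to 1803 leaving out each library. Genes enriched, 10376, became 3426 (TMM) and 2751 (DESeq2 size factors), with 9834 to 10472 leaving out each library. Genes lower, 287, became 3175, 3834, 131 (tags outside), 30 (filterByExpr), 118 (DESeq2, total tags) and 88 (replicate block), and 125 to 380 leaving out each library. Enriched promoters, 8390, became 1683 and 1253, and lower promoters, 92, became 1276, 1915, 47, 1, 33 and 21 in the same order, with 41 to 147 leaving out each library. Listed genes with an enriched promoter, 364 of 454, became 90 (TMM) and 75 (DESeq2 size factors), alternatives chosen after seeing the data. The median log2 ratio of promoter windows, 2.45, was 3.15 (tags outside), 2.95 (pseudocount 0.1), 2.06 (pseudocount 1) and 2.17 (no overlap). That of distal windows, 1.22, was 1.85, 1.61, 0.95 and 0.99. The filterByExpr fits tested only 29614 windows, 10844 genes and 7535 promoters, so items of few tags could not be called there. TMM and the size factors of DESeq2 centre the windows on themselves by construction. Signs turned, with a call before or after, for Apoe (-1.82 and -2.06), Camk2a (-2.42, -2.69), Cd22 (-0.53, -0.76), Cela1 (-0.31, -0.54), Dlg4 (-0.20, -0.42), Elavl4 (-1.87, -2.12), Fos (-0.50, -0.73), Gas6 (-2.45, -2.70), Kdr (-0.069, -0.30), Mbp (-1.44, -1.68), Mog (-0.86, -1.09), Ndrg2 (-0.80, -1.06), Pecam1 (-0.63, -0.86), Rpl27 (-1.05, -1.28), Tmem119 (-0.99, -1.22) and Rn45s (-1.86, -2.34), and with the size factors of DESeq2 for Siglec1 (-0.013) and Mrc1 (-2.54). Promoters called neither before nor after, such as Nr1h3, also turned and are not listed. Under the other settings none of the 122 named windows and promoters turned sign with a call before or after, while 60 of 1318 calls were lost and 7 gained; for most of these the cause was not tested. The replicate block ended 2 named calls, Acta2 and Hoxb3. Precision is limited by the number of tags, and a 2-fold enrichment was not excluded in 26743 windows that were not called.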

Other observations

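H3K27ac libraries held 0 tags more often than input libraries of like depth. Of windows on chromosomes 1 to 19, 14.1, 12.3 and 21.9% had 0 tags in H3K27ac replicates 1 to 3, against 5.91, 5.59 and 12% in input replicates 1 to 3. Among windows that do not overlap the one before and in which the other 2 libraries of the group averaged 8 to 12 tags, 8.41, 5.93 and 15.3% held 0 tags in the H3K27ac libraries (5414 to 5720 windows each), against 0.968, 1.09 and 3.19% in the input libraries (643 to 1692 windows). The cause was not tested.

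The ribosomal RNA repeat Rn45s held one of the 12 highest H3K27ac levels among enriched windows (1 per gene), with 231, 320 and 346 tags, but its input held 235, 240 and 143, so the ratio was only 1.51 (log2 ratio 0.60 ± 0.25, edgeR adjusted p 0.0359). Leaving out H3K27ac replicate 3 or any input replicate ended this call (adjusted p 0.0561 to 0.108), and TMM turned it (-1.86). The windows of Inpp5d, Plek and C3ar1, at similar levels of 71.9 to 76.8 CPM, were 32.7 to 35.9-fold above input. These windows were chosen after their values were seen.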
